A study of Mus musculus with 16 samples.

Results

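The genes described here are 31 genes of glucose breakdown and of the response to low oxygen, measured by bulk RNA-seq in 16 MC38 tumors. They are listed glycolysis enzymes and hypoxia targets matched by symbol, and all 31 were found among the 53465 genes of the count table. All 31 also passed the filter on low counts that left 18251 genes for testing. They comprised 3 genes of glucose entry, 12 glycolysis enzymes, 4 genes of glycolysis control and lactate export, and 12 hypoxia targets. MC38 is a mouse colorectal carcinoma line, and its cells were grown under the skin of the right flank of female C57BL/6 mice aged 6 to 8 weeks. Mice whose tumor measured 150 to 250 mm3 on day 16 were assigned at random to treatment, dosed with 200 µg of antibody on days 16 and 20, and their tumors were taken on day 21, after 5 days of treatment. Of the 16 mice, 8 received control IgG (tumors 1 to 8) and 8 received an antibody against the checkpoint receptor PD-1 (aPD-1). The treated tumors were divided into 6 aPD-1 non-responders (tumors 9 to 14) and 2 aPD-1 responders (tumors 15 and 16). The division followed treatment and rested on CD8 T cell staining of the same tumors, so response was not assigned at random. Each tumor was cut apart, and staining used its paraffin-embedded piece while the RNA came from its frozen piece. Each tumor came from another mouse, and RNA was extracted from sections that held tumor, immune and stromal cells together. In such bulk samples, fewer cells of a type and less RNA per cell cannot be told apart.

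Glycolysis converts glucose to pyruvate in the cytosol, and lactate dehydrogenase turns pyruvate into lactate, which is exported from the cell. When oxygen is scarce, prolyl hydroxylases stop marking the hypoxia-inducible factors HIF-1α and HIF-2α for destruction, and the stabilized factors bind DNA with their partner ARNT and raise transcription of glucose transporters, most glycolytic enzymes and a set of other targets. Solid tumors commonly hold poorly perfused zones where these genes are high, and tumor cells also run glycolysis in the presence of oxygen.

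The core letters bound by the hypoxia-inducible factors are ACGTG in their most common form, and a second form often seen at such sites is GCGTG, so the promoters of 6 genes on which the results turn are shown. Each sequence is the 250 bases before the start site that RefSeq gives (first window listed for the gene, build GRCm38.p6), written 5′ to 3′ on the strand of the gene, with both motifs in capitals on either strand (the first reads CACGT in reverse, and the second is then seen as CACGC). Gapdh and Pfkfb3 are the members that passed the test in responders, Egln3 came nearest to the threshold, and Slc2a1, Ldha and Car9 are textbook hypoxia targets that carry glucose, make lactate and regulate pH.
Gapdh, chr6:125165774-125166023 (- strand): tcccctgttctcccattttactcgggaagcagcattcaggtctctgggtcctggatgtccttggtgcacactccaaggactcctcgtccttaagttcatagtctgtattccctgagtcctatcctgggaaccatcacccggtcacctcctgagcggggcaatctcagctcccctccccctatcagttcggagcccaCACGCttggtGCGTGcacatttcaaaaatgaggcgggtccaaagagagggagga
Pfkfb3, chr2:11553930-11554179 (- strand): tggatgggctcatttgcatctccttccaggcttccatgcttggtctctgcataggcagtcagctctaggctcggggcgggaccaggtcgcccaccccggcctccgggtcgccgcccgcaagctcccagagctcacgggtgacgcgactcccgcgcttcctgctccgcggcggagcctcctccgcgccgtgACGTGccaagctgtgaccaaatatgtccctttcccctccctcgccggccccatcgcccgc
Egln3, chr12:54203875-54204124 (- strand): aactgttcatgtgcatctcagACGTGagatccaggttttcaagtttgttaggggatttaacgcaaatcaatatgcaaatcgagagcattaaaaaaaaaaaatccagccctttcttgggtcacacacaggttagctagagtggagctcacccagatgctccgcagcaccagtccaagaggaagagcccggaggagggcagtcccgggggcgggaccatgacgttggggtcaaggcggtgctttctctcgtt
Slc2a1, chr4:119108495-119108744 (+ strand): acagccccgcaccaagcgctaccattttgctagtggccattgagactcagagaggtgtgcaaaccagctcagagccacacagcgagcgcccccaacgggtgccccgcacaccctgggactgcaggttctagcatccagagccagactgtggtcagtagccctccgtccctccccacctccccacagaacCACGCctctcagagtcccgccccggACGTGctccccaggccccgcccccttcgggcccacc
Ldha, chr7:46845554-46845803 (+ strand): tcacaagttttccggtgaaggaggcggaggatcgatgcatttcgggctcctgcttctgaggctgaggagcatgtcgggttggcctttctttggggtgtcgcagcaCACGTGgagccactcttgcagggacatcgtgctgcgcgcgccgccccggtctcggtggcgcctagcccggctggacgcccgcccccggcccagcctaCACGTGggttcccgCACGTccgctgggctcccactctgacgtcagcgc
Car9, chr4:43506776-43507025 (+ strand): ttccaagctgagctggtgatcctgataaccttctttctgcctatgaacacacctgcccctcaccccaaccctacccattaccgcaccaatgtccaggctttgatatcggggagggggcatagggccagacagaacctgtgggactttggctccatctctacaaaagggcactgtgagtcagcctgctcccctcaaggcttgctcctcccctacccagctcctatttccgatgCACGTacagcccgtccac
Ldha held 5 occurrences of ACGTG on either strand, but each CACGTG was counted once per strand (at -145 and -144, and at -48 and -47). The last occurrence was at -34. Slc2a1 held 1 of each motif, and Gapdh held GCGTG only, in both orientations. Of the 31 members, 30 had a RefSeq window (Ndrg1 had none). ACGTG on either strand was present in 15 of the 30 windows (50%), against 20.9% of 12218 tested genes and 16.6% of all 27025 genes with a window. GCGTG was likewise present in 15 of the 30 members (50%), against 42.5% of tested genes and 28.2% of all genes. Either motif was present in 23 of 30 (76.7%), against 53.6% of tested genes and 38.6% of all genes. The 12 hypoxia targets, 11 with a window, held either motif in 9 cases (81.8%), and the 15 genes of glucose entry and glycolysis in 10 (66.7%). The shares depended on the window, since 11 members have more than 1 and only the first was counted. With a gene counted when any of its windows held the motif, ACGTG was present in 19 of 30 members (63.3%) and 23.9% of tested genes, and GCGTG in 21 (70%) and 46.6%. Aldoa, Pkm, Vegfa and Hilpda held ACGTG in a later window only. These shares describe letters in a window and are not binding sites. The median GC content of the windows was 61.2% for the members and 59.2% for tested genes.

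Total counts per tumor ranged from 26603477 to 39948874. Some libraries stood apart before any comparison. IgG control tumor 3 had 20.4% of its counts on 1 ribosomal RNA entry, which was at most 0.489% in the others. Mitochondrially encoded mRNA made up 5.54% to 7.32% of counts in tumors 1 (IgG control), 9 and 14 (both non-responders), and 1.84% to 3.15% in the other 13 tumors. IgG control tumor 6 had summed skeletal muscle markers of 2512 CPM (the usual count rate, here on the TMM-scaled library total), against at most 98.6 CPM elsewhere. The line's labelled origin was checked against 10 epithelial and colon markers, which summed to 5.65 to 14.1 CPM in the 14 IgG control and non-responder tumors, with Cdx2 at most 0.026 CPM in any tumor. Defining colon epithelial transcripts were thus nearly absent there, while 7 fibroblast markers summed to at least 5485 CPM. That sum was mainly Col3a1 (3588 to 5928 CPM in the 14 tumors) and Dcn (688.7 to 1906 CPM). Each other fibroblast marker was at most 509.3 CPM in these tumors, with Col1a1 as low as 37.0 and Col1a2 as low as 18.3 CPM. The 2 responders differed from the other 14 tumors in several marker lists, and the part of these cells in the results below was not tested. Lymphocyte markers summed to 1532 and 811 CPM in responders 15 and 16, against 96.4 to 169.3 CPM in the others, and all 10 passed the test as higher. Fat cell markers summed to 2419 and 438 CPM against 2.13 to 156.0 CPM (6 of 6 passed), vessel markers to 406 and 224 CPM against 61.5 to 227.7 CPM (3 of 8 passed), and the epithelial list to 119.8 and 52.0 CPM (5 of 7 tested passed; 5.65 to 14.1 CPM in the others). Macrophage and monocyte markers summed to 2107 and 2300 CPM in responders 15 and 16, against at most 1920 CPM in the others. Neutrophil markers summed to 14.9 and 30.7 CPM, against at most 12.4 CPM. Macrophage and monocyte, neutrophil and fibroblast lists had 1 of 8, 2 of 5 and 1 of 7 tested genes higher than in non-responders. Relative to IgG controls the first 2 lists had 4 of 8 and 4 of 5 higher. Against non-responders 3 of 8 proliferation markers were lower, and no muscle, keratinocyte, red cell or mitochondrial marker passed.

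Levels between genes were compared per kilobase of exon, counting all exons annotated for a gene. That length can exceed the length of a single transcript, so the order of genes with similar values depends on it. Among the members, glycolytic enzymes were the most abundant: the median over 16 tumors was 1147 CPM per kilobase for Gapdh (glyceraldehyde-3-phosphate dehydrogenase), 777.7 for Pgk1 (phosphoglycerate kinase, the first ATP-yielding step) and 612.2 for Pkm (pyruvate kinase). Eno1 (enolase), Aldoa (aldolase), Ldha, Pgam1 (phosphoglycerate mutase) and Tpi1 (triosephosphate isomerase) lay between 383.3 and 470.2 CPM per kilobase. The first committed steps were far lower. Phosphofructokinase was present as all 3 isoforms, with Pfkl (liver form) at 32.5, Pfkm (muscle form) at 19.2 and Pfkp (platelet form) at 9.04 CPM per kilobase. Of the hexokinases, which trap glucose in the cell, Hk2 (23.1) was above Hk1 (11.5) on this measure. In CPM their medians were closer, at 122.2 and 100.5 in the 11 IgG control and non-responder tumors besides 1, 9 and 14. Their longest transcripts have 5513 and 4278 bases, so their order depends on the length used. Slc2a1, the glucose transporter GLUT1, was at 50.7 CPM per kilobase. Among hypoxia targets Ddit4 (an inhibitor of mTORC1 signaling, 152.2), Bnip3 (a mitophagy receptor, 142.5) and P4ha1 (a collagen prolyl hydroxylase subunit, 123.8) were the most abundant. Adm (the vasodilator peptide adrenomedullin, 4.47), Pfkfb4 (3.18) and Pfkfb3 (6.56), 2 forms of the enzyme that sets the level of fructose-2,6-bisphosphate, were the least abundant members per kilobase.

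**Figure D1:**
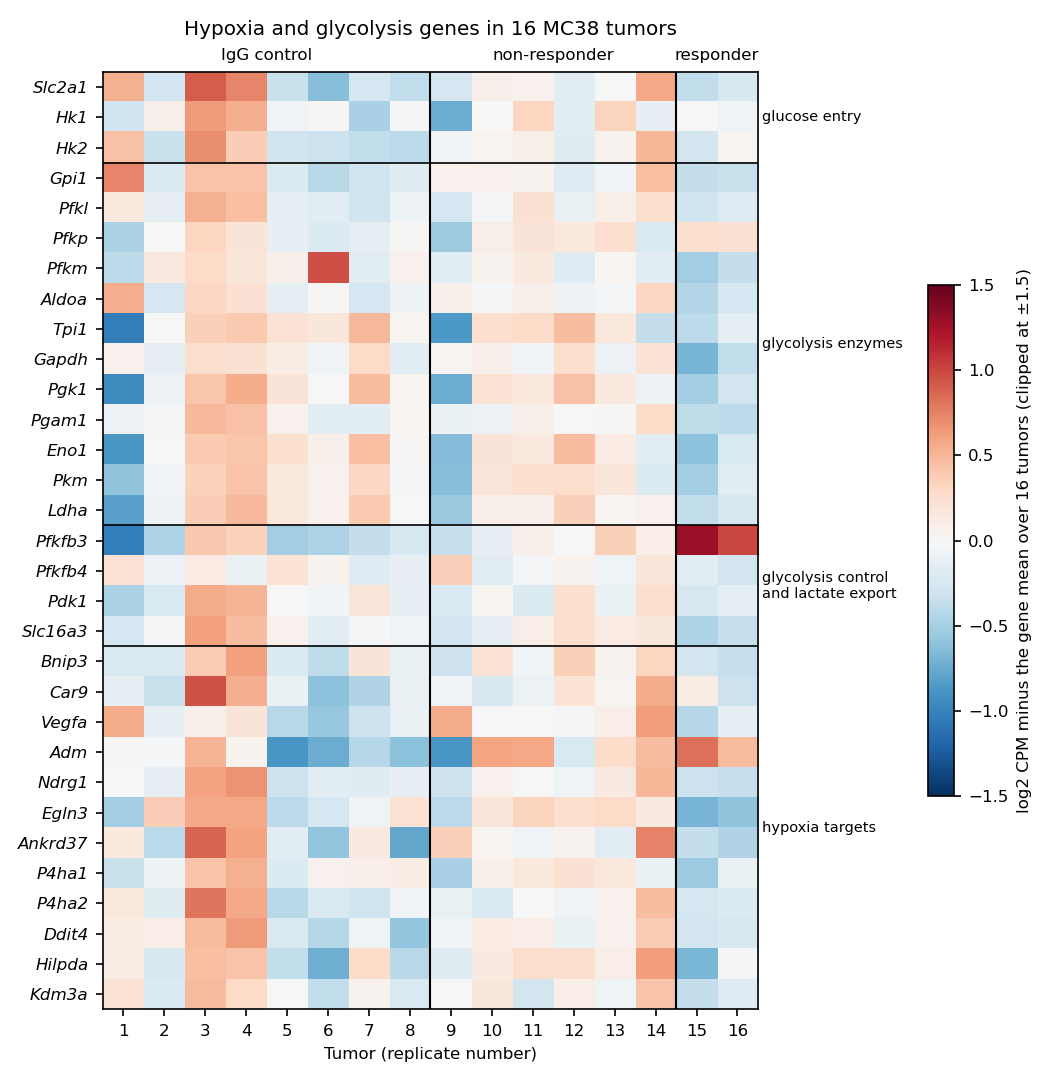
Expression of the 31 genes (rows, by role) in the 16 tumors (columns, by group), as log2 CPM minus the mean of that gene over the 16 tumors; red is above and blue below that mean. IgG control tumors 3 and 4 are above the mean in nearly all rows, tumors 1 and 9 are split within the glycolysis rows, and responders 15 and 16 are below the mean in most rows but not in Pfkfb3, Pfkp and Adm.

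The comparison of aPD-1 responders with non-responders asks which genes separated treated tumors by their CD8 T cell level. Most members had lower values in responders, but only 2 passed the test (edgeR's quasi-likelihood test, adjusted p below 0.05 over all genes tested): Gapdh was lower and Pfkfb3 was higher. That is 1 of 31 in each direction (3.23%), against 15.4% of all genes tested higher and 4.34% lower, so the share of members that passed was not above the background. The log2 fold change was below 0 for 28 of 31 members, with a median of -0.36, against 48.3% of all genes tested and a median of 0.02. The 3 members above 0 were Pfkfb3, Adm and Pfkp. Both responders lay below the non-responder median in 26 of 31 members, against 37.2% of all genes tested. They lay below all 6 non-responders in 11 members (13.2% of all genes tested did so), namely Gpi1, Pfkm, Aldoa, Gapdh, Pgam1, Slc16a3, Vegfa, Ndrg1, Egln3, Ankrd37 and Ddit4. Pfkfb3 was the 1 member above all 6, as were 21.5% of all genes tested.

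Gapdh catalyzes the oxidation step of glycolysis and is often used as a reference gene. It lies on chromosome 6 of GRCm38, from 125161715 to 125166467. Gapdh was at 2818 CPM in responder 15 and 3532 CPM in responder 16. The non-responders had a lowest value of 4286, a median of 4761 and a highest of 5474 CPM, and the IgG controls 4067, 4860 and 5631 CPM. Both responders were thus below all 14 other tumors. The log2 fold change was -0.61 against non-responders (standard error 0.16, 95% interval -0.95 to -0.26, adjusted p = 0.0134) and -0.61 against IgG controls (standard error 0.16, 95% interval -0.95 to -0.28, adjusted p = 0.00921).

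Pfkfb3 makes fructose-2,6-bisphosphate, the strongest activator of phosphofructokinase, and lies on chromosome 2 from 11471433 to 11554077. It was at 126.7 and 104.2 CPM in responders 15 and 16. Non-responders ranged from 40.7 to 66.3 CPM (median 53.1), and IgG controls from 25.3 to 68.6 CPM (median 39.1). Both responders were above all 14 other tumors, whereas 14 of the 15 genes of glucose entry and glycolysis had fold changes below 0. The log2 fold change was 1.13 against non-responders (standard error 0.27, 95% interval 0.56 to 1.70, adjusted p = 0.00642) and 1.38 against IgG controls (standard error 0.25, 95% interval 0.84 to 1.91, adjusted p = 0.000680). Responder 15, the higher of the pair, was also the higher in summed lymphocyte, fat cell and vessel markers, but the lower in macrophage and monocyte markers (2107 against 2300.3 CPM) and neutrophil markers (14.9 against 30.7 CPM). Whether those cells contributed to the Pfkfb3 level was not tested. The related enzyme Pfkfb4 was at 13.2 to 14.4 CPM in responders and 14.3 to 20.4 CPM in non-responders.

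These calls rested on 2 responder tumors. Without responder 15, no member passed against non-responders and Pfkfb3 alone passed against IgG controls, with adjusted p = 0.182 and 0.0467 for Pfkfb3 and 0.238 and 0.193 for Gapdh. The log2 fold changes against non-responders were then 0.91 for Pfkfb3 and -0.53 for Gapdh. With 1 responder left, the responder arm has no spread of its own, and its tumor is assumed to vary like those of the other groups. Without responder 15, 4.91% of all genes tested were higher and 0.459% lower than in non-responders, and 6.72% and 0.595% relative to IgG controls. Without responder 16, Pfkfb3 and Gapdh both passed in both comparisons, where 13.7% and 3.34%, and 15.7% and 4.14%, of all genes tested were higher and lower. Without tumors 1, 9 and 14 (chosen after the data were seen for their high mitochondrial share), 9 members were lower and 1 was higher than in non-responders, where 14.7% and 17.8% of all genes tested passed in those directions. The 9 were Gapdh, Pgk1, Tpi1, Eno1, Pkm, Ldha, Slc16a3, Egln3 and P4ha1.

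Of the other glycolysis enzymes, 10 had log2 fold changes between -0.47 and -0.29 and Pfkp had 0.23, and none passed. Pgam1 came nearest to the threshold. It was at 617.2 and 612.0 CPM in responders, 751.4 to 977.1 CPM in non-responders (median 813.9) and 714.7 to 1128 CPM in IgG controls (median 808). The responders did not overlap either group, and the log2 fold change against non-responders was -0.43 (95% interval -0.81 to -0.05, adjusted p = 0.111). Aldoa was at 950.6 and 1073 CPM in responders, against 1225 to 1601 CPM in non-responders (median 1313) and 1080 to 1890 CPM in IgG controls (median 1264), again without overlap. For Ldha, the lactate dehydrogenase subunit, responders had 1049.7 and 1144 CPM, inside the non-responder range of 922.2 to 1741 CPM. Only tumor 9 of the non-responders was below them, and the others were at 1388 to 1741 CPM. For Eno1 and Pkm the responders were likewise inside the ranges of both groups, and tumors 1 and 9 were the only ones below responder 15. The transporter Slc16a3, the monocarboxylate carrier MCT4 that exports lactate, was at 277.3 and 301.5 CPM in responders. Non-responders ranged from 314.5 to 450.4 CPM and IgG controls from 318.2 to 585.0 CPM, so the responders were the 2 lowest of the 16 tumors (log2 fold change against non-responders -0.45, standard error 0.21, adjusted p = 0.162).

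The 3 genes of glucose entry had a median log2 fold change of -0.20 against non-responders, and none passed. Slc2a1 was at 159.0 and 174.0 CPM in responders, 171.9 to 307.3 CPM in non-responders (median 209.1) and 131.4 to 384.5 CPM in IgG controls (median 170.2), so all 3 groups overlapped. Relative to non-responders the log2 fold change was -0.38, and the 95% interval of -1.15 to 0.40 spans both a fall of more than 1 log2 unit and a rise. Hk1 had a log2 fold change of -0.01 (95% interval -0.59 to 0.58) and Hk2 of -0.20 (-0.80 to 0.41).

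Of the 12 hypoxia targets, 11 had a log2 fold change below 0 against non-responders, and none passed. Egln3, an oxygen-sensing prolyl hydroxylase that is itself induced by HIF, had the most negative log2 fold change. It was at 38.4 and 40.9 CPM in responders. The non-responders ranged from 47.6 to 78.7 CPM (median 72.6) and the IgG controls from 43.6 to 93.0 CPM (median 65.9), so both responders were below all 14 other tumors. The log2 fold change was -0.80 against non-responders (standard error 0.28, 95% interval -1.40 to -0.21, adjusted p = 0.0525) and -0.77 against IgG controls (standard error 0.27, adjusted p = 0.0518), just above the threshold. With DESeq2 in place of edgeR, Egln3 passed in both comparisons. Ndrg1, a stress-responsive gene of differentiation, was at 191.8 and 189.0 CPM in responders and had 192.1 CPM in the lowest of the other tumors. Vegfa, the main angiogenic factor, was at 208.3 and 254.5 CPM in responders, below the 276.9 to 434.4 CPM of non-responders but inside the IgG control range of 189.4 to 410.7 CPM. Hilpda (a lipid droplet protein), Ankrd37, Bnip3, Kdm3a (a histone demethylase), P4ha1, P4ha2, Ddit4 and Car9 had log2 fold changes between -0.60 and -0.19. Car9, the cell-surface carbonic anhydrase widely used as a hypoxia marker, was at 22.7 and 16.9 CPM in responders and 17.8 to 31.1 CPM in non-responders, with a 95% interval of -0.90 to 0.53 for the log2 fold change. Adm was the exception among the targets, at 12.5 and 9.79 CPM in responders against 3.85 to 10.6 CPM in non-responders.

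**Figure D2:**
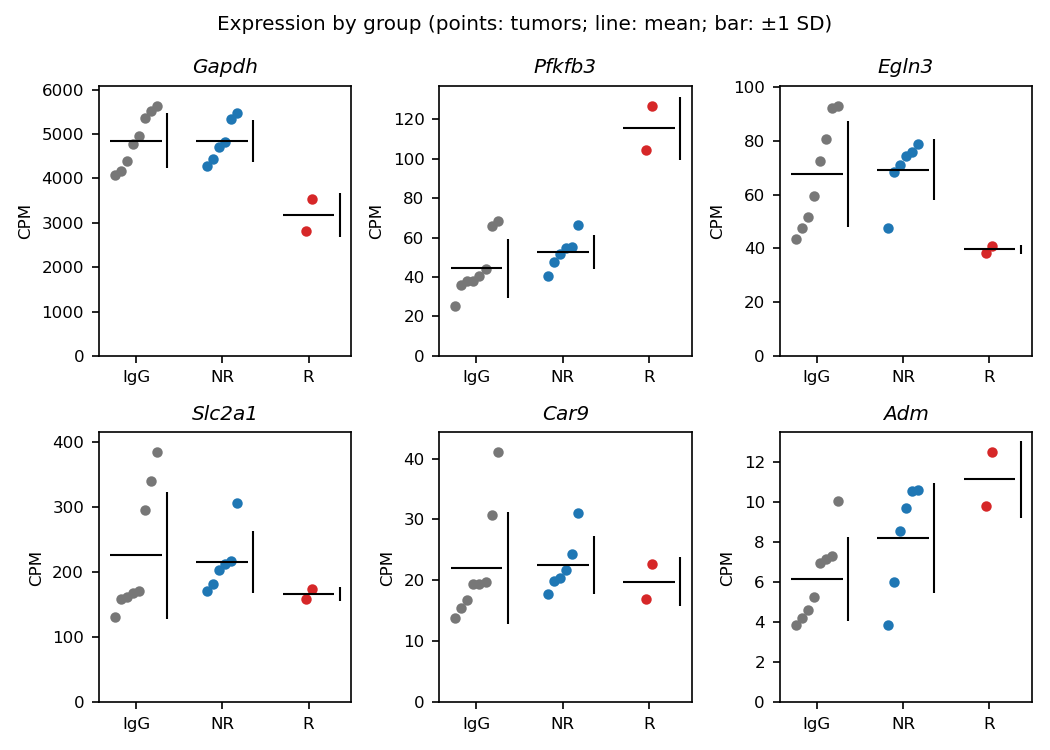
CPM per tumor for Gapdh, Pfkfb3, Egln3, Slc2a1, Car9 and Adm in IgG control (IgG, n = 8), non-responder (NR, n = 6) and responder (R, n = 2) tumors; each point is a tumor, the horizontal line is the mean and the vertical bar is 1 SD to each side. The responder points of Gapdh (2818 and 3532 CPM) and Egln3 (38.4 and 40.9 CPM) lie below all others, those of Pfkfb3 (104.2 and 126.7 CPM) lie above all others, and those of Slc2a1, Car9 and Adm overlap the other groups.

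Against IgG controls, which asks how treated tumors with many CD8 T cells differed from untreated ones, the same 2 members passed, Gapdh lower and Pfkfb3 higher. Of all genes tested, 17.7% passed as higher and 5.17% as lower. The log2 fold change was below 0 for 28 of 31 members, with a median of -0.40, against 51.6% of all genes tested. Pfkm was at 43.5 and 48.8 CPM in responders and 47.6 to 121.5 CPM in IgG controls (log2 fold change -0.63, standard error 0.24, adjusted p = 0.0761). Its highest value was in tumor 6, the tumor with high muscle markers, where the muscle isozymes Eno3 (105.8 CPM, at most 32.2 elsewhere), Pgam2 (15.1 CPM, at most 0.729 elsewhere) and Pygm (59.9 CPM, at most 2.01 elsewhere) were also highest; the part of muscle tissue in the Pfkm difference was not tested. Adm was higher in 2 of 2 responders than the IgG median of 6.12 CPM, and the difference was 0.85 log2 units (standard error 0.34, adjusted p = 0.0869). Both responders lay below all 8 IgG controls in 6 members (9.7% of all genes tested did so), namely Aldoa, Gapdh, Pgam1, Slc16a3, Ndrg1 and Egln3. In these 6 both responders were also below all 14 other tumors, as were 7.86% of all genes tested. Pfkfb3 was above all 8 controls and all 14 other tumors, as were 19.3% and 16.7% of all genes tested. An unadjusted p below 0.05 was found for 8 members against IgG controls (33.3% of all genes tested) and 4 against non-responders (31.2%). Without tumors 1, 9 and 14 there were 12 lower and 2 higher (Pfkfb3 and Adm), against 19.6% and 22.0% of all genes tested. The comparisons with non-responders and with IgG controls share the 2 responders, so they are not independent of each other.

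The number of glycolysis and hypoxia genes that passed as lower depended on the fit, while Pfkfb3 was the member that passed as higher in each of the following. With DESeq2, Gapdh and Egln3 were lower than in non-responders (lower 6.53% and higher 15.9% of all genes tested), and Pfkm, Gapdh, Slc16a3, Egln3 and Pgam1 were lower than in IgG controls (7.99% and 18% of all genes tested). With the groups compared fitted alone, Pfkm, Gapdh, Egln3 and Pgam1 were lower than in non-responders (4.46% and 14.7%), and Gapdh than in IgG controls (3.19% and 17%). With the ribosomal RNA entry removed before scaling, Gapdh and Egln3 were lower than in non-responders (6.27% and 14.4%), and Pfkm, Gapdh, Egln3 and Pgam1 than in IgG controls (7.46% and 16.7%). Without IgG control tumor 1, the library with the highest mitochondrial share, 4 members were lower than in non-responders (11.2% and 16.7%) and 9 than in IgG controls (12.3% and 19.1%). A log2 fold change beyond 1 was reached with an adjusted p below 0.05 by Pfkfb3 alone, where 12.5% of all genes tested were higher and 0.663% lower than in non-responders, and 14.3% and 0.641% relative to IgG controls. Gapdh was in each of these lists of lower genes except the last.

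**Figure D3:**
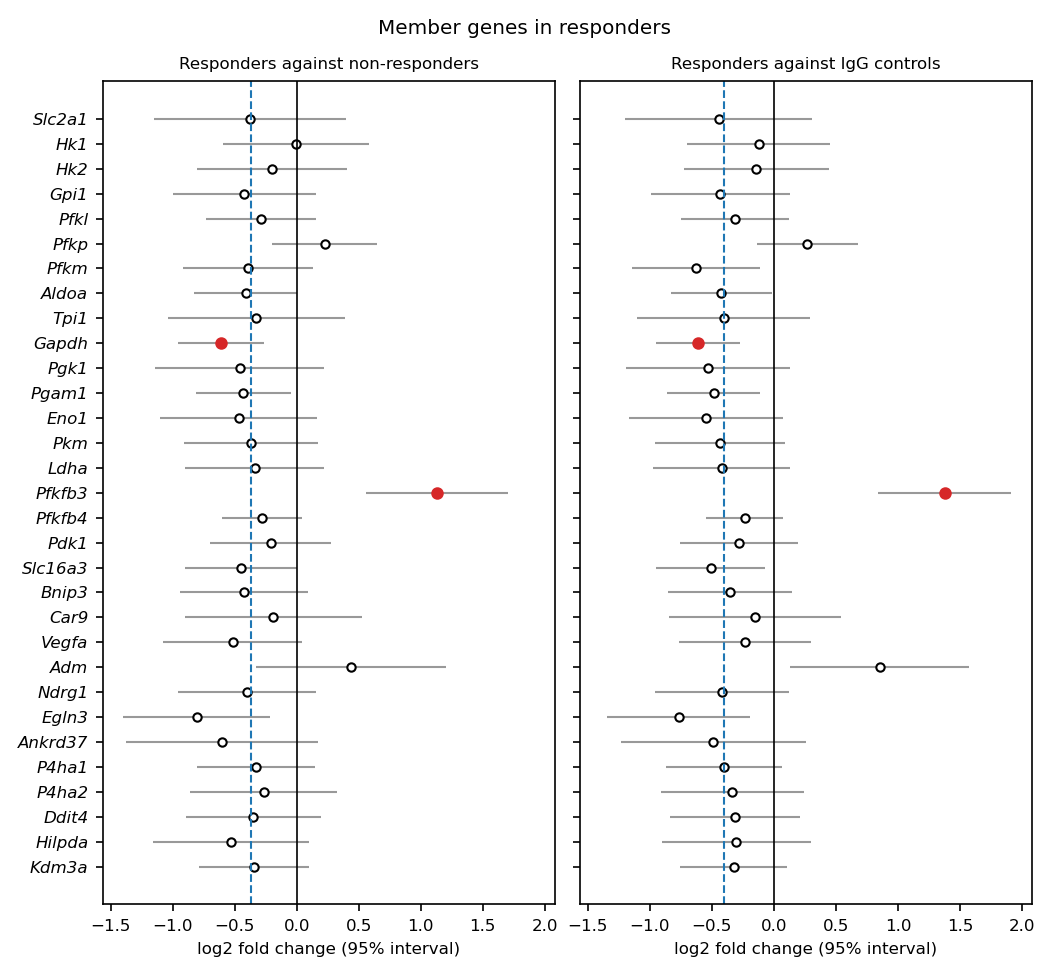
Log2 fold change of each of the 31 genes (points) with its 95% interval (bars) for responders against non-responders (left) and against IgG controls (right); filled red points passed an adjusted p of 0.05 and the dashed line is the median over the 31 genes, -0.36 and -0.40. In both panels 28 of 31 points lie left of 0, only Gapdh and Pfkfb3 are filled, and most intervals cross 0.

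No difference in these genes was detected between non-responders and IgG controls at this number of tumors. In that comparison, 0 of 31 members passed with edgeR or with DESeq2, and 0 had an unadjusted p below 0.05, where 3.8% of all genes tested did and 0% passed adjustment. The members' log2 fold changes lay between -0.24 (Pfkm) and 0.41 (Adm), with 18 below 0 (51.2% of all genes tested were) and a median of -0.01. The 95% intervals were narrower here, with the lowest bound at -0.58 (Pfkm) and the highest at 0.93 (Adm), so a change of 1 log2 unit lies outside the interval of every member. For Gapdh the log2 fold change was -0.0035 (95% interval -0.22 to 0.22), and for Slc2a1 it was -0.07 (-0.57 to 0.43). The direction of the median rested on single libraries: without IgG control tumor 3 it was 0.06, with 23 members above 0. With all 8 treated tumors in 1 group against IgG controls, 0 members passed (0% of all genes tested), 25 of 31 were below 0 (49.6% of all genes tested), and 2 had an unadjusted p below 0.05, Pfkfb3 with a log2 fold change of 0.62 and Adm with 0.53 (adjusted p = 0.278 and 0.329), where 13.5% of all genes tested did. DESeq2 also called 0 members there. Where responders and non-responders were weighted equally in the 3-group fit, 1 member passed, Pfkfb3.

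A further 83 genes of the same pathways were followed, of which 74 were tested. Their fold changes in responders were of both signs. Against non-responders 8 of 74 were higher and 3 lower (15.4% and 4.34% of all genes tested), with 32 below 0 and a median log2 fold change of 0.05. Against IgG controls 12 were higher and 3 lower (17.7% and 5.17% of all genes tested), so in neither comparison was the share of higher genes above the background. The calls rested largely on responder 15, as did those over all genes tested, and without it 1 responder is left. The log2 fold changes against non-responders were then 3.52 for Pck1, 1.57 for Eno2 and 1.24 for Slc2a3. Without IgG control tumor 1, 18 pathway genes passed against non-responders and 20 against IgG controls. In that fit 16.7% of all genes tested were higher and 11.2% lower than in non-responders, and 19.1% and 12.3% relative to IgG controls. Against non-responders the share that passed was 1 of 9 genes of the HIF machinery, 6 of 23 other isozymes and carriers, 2 of 11 genes of gluconeogenesis and glycogen, and 2 of 31 further hypoxia targets. No pathway gene passed between non-responders and IgG controls, where 4 of 74 had an unadjusted p below 0.05 and DESeq2 called 0.

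Of the HIF machinery, Epas1, which encodes HIF-2α and is prominent in endothelial cells, was higher in responders. It was at 60.7 and 24.2 CPM there, 5.27 to 14.55 CPM in non-responders and 4.77 to 16.9 CPM in IgG controls, or 2.31 log2 units above non-responders (standard error 0.44, adjusted p = 0.00108). Without responder 15 the difference was 1.43 log2 units and did not pass (adjusted p = 0.168). The endothelial marker Pecam1 was at 108.7 to 189.1 CPM in responders and at most 77.3 CPM elsewhere, but only 3 of the 8 vessel markers passed. Flt1, another of them, was at 23.8 to 31.5 CPM in responders and up to 38.6 CPM in IgG controls. The part of vessel cells in the Epas1 level was not tested. Hif1a, which encodes HIF-1α, was at 179.4 and 242.1 CPM in responders, or 0.46 log2 units above non-responders (standard error 0.40, adjusted p = 0.485). The HIF partner Arnt (log2 fold change 0.10), the main oxygen sensor Egln1 (-0.29) and the HIF ubiquitin ligase subunit Vhl (0.01) also did not pass.

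Several isozymes were higher in responders while the members that catalyze the same step were not, although of those named here only Slc2a3 passed against non-responders without responder 15. Neuronal-type enolase Eno2 was at 4.88 and 2.42 CPM in responders and at most 1.19 CPM elsewhere (log2 fold change against non-responders 2.24, adjusted p = 0.00103), whereas Eno1 had -0.47. The glucose transporters Slc2a3 (GLUT3, log2 fold change 1.24, adjusted p = 0.00293) and Slc2a4 (GLUT4 of fat and muscle, 4.09, adjusted p = 0.0115) were higher, whereas Slc2a1 had -0.38. The cytosolic gluconeogenic enzyme Pck1, which is also high in fat cells, was at 172.6 and 18.7 CPM in responders and at most 5.40 CPM elsewhere (log2 fold change 5.92, standard error 1.06, adjusted p = 0.000758). Pck1 was higher in responder 15 than in 16, as were the summed fat cell markers (2419 and 438 CPM) and the lymphocyte and vessel sums. The part of any of these cells in the Pck1 level was not tested. Slc16a7 (the monocarboxylate carrier MCT2, 1.75), Pdk4 (a pyruvate dehydrogenase kinase, 4.40) and Trf (transferrin, 2.002) were higher as well. Pdk4 and Slc2a4 were also high in IgG control tumor 6, the tumor with high muscle markers, at 11.2 and 3.84 CPM. Hkdc1 (a hexokinase-like enzyme, -1.62), the mitochondrial enzyme Pck2 (-0.91) and the cytokine-like hypoxia target Mif (-0.70) were lower. Mif was at 301.4 and 422.7 CPM in responders and 506.4 to 718.5 CPM in non-responders, with no overlap.

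The level of the members varied among untreated tumors, and 2 libraries were usually the highest. IgG control tumors 3 and 4 were the 2 highest of the 8 controls in 20 of 31 members, against 8.11% of all genes tested, including 11 of 12 hypoxia targets and 6 of 15 glycolysis genes. The exception among the hypoxia targets was Vegfa, whose 2 highest controls were tumors 1 and 4. Car9 was at 41.0 and 30.7 CPM in tumors 3 and 4 and 13.8 to 19.7 CPM in the other 6 controls. Slc2a1 was at 384.5 and 340.5 CPM there, and the next highest control was tumor 1 with 295.7 CPM. The SD of log2 CPM over the 8 controls had a median of 0.39 over the members and 0.35 over all genes tested. Without tumors 3 and 4 these were 0.28 and 0.36, and without tumor 1 they were 0.33 and 0.21, so whether the members varied more or less than other genes depended on the libraries kept. Tumor 3 is the library with the high ribosomal RNA share, which was 0.416% in tumor 4, and the part of that share in the levels was not tested. The lowest mean hypoxia level among controls was in tumor 6, at 6.11 log2 CPM against 7.08 in tumor 3.

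The mean log2 CPM of the 15 genes of glucose entry and glycolysis was set against that of the 12 hypoxia targets in each tumor. Over 16 tumors Pearson's r was 0.77 and Spearman's rho 0.76, as a description of points that share library scaling. Without tumors 3 and 4, the 2 farthest from the median hypoxia level, r was 0.53 over 14 tumors. Within the 8 IgG controls r was 0.83 and rho 0.43, but without tumors 3 and 4 r was -0.61 over the 6 others, so the relation among controls rested on those 2 tumors. Within the 6 non-responders r was 0.66 and rho 0.20. Responders had glycolysis means of 8.79 and 8.96 log2 CPM, against 8.80 to 9.30 in non-responders and 8.95 to 9.61 in controls. Their hypoxia means, 6.26 and 6.32, were the lowest among treated tumors but inside the control range of 6.11 to 7.08. Single members followed the hypoxia mean to very different degrees: r with the mean z score of the 12 targets was 0.92 for Slc2a1, 0.88 for Pfkl and 0.83 for Hk2 and Pgam1, but 0.44 for Ldha, 0.42 for Pgk1, 0.22 for Tpi1 and 0.13 for Pfkfb3.

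**Figure D4:**
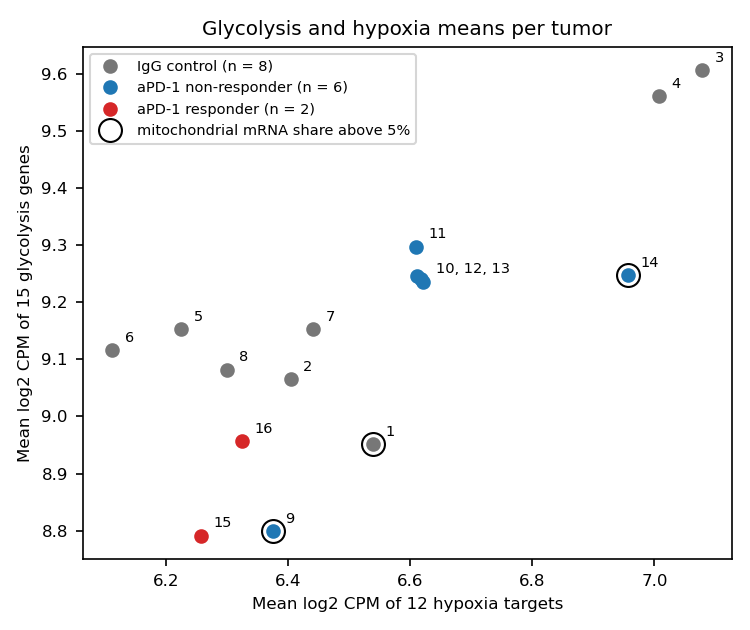
Mean log2 CPM of the 15 glycolysis genes (y axis) against that of the 12 hypoxia targets (x axis) in each of 16 tumors, coloured by group and numbered by replicate; rings mark tumors with a mitochondrial mRNA share above 5%. IgG control tumors 3 and 4 lie at the upper right (7.08 and 7.01 on the x axis), and tumors 1, 9 and 14 lie below tumors of similar hypoxia level.

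Within glycolysis some members formed sets that tracked each other across tumors, shown here by pairs chosen after the values were seen. Others were not confined to a set: Pgam1 correlated with Slc2a1 at 0.75 and with Pgk1 at 0.52, and Gapdh with each at 0.50. Pgk1 correlated with Eno1 at r = 0.99, with Ldha at 0.99 and with Tpi1 at 0.96 over the 16 tumors. Slc2a1 correlated with Gpi1 at 0.91 and Aldoa with Gpi1 at 0.91. Between the sets the relation was weak or negative, at 0.15 for Slc2a1 with Pgk1 and -0.34 for Tpi1 with Gpi1, although Gpi1 and Tpi1 act within a few steps of each other. Over all pairs of members the mean r was 0.41, against 0.01 over all pairs of genes tested.

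Tumors 1, 9 and 14 stood apart from the others between these sets, and they are those with the high mitochondrial mRNA share. Tpi1 was at 456.5, 516.7 and 731.5 CPM in them and 943.1 to 1315 CPM in the other 11 IgG control and non-responder tumors. Eno1 was at 1287, 1495 and 2119 CPM against 2359 to 3245 CPM, and Pkm at 1872, 1826 and 2468 CPM against 2759 to 3809 CPM. Vegfa went the other way, at 410.7, 413.8 and 434.4 CPM against 189.4 to 321.8 CPM. Gpi1, the second enzyme of glycolysis, was at 1167, 737.5 and 959.2 CPM in the 3 tumors, against 527.9 to 949.2 CPM in the other 11 (median 621.1 CPM). Tumor 9 was thus inside their Gpi1 range. Gapdh was at 4774, 4709.5 and 5334 CPM, against a median of 4813 CPM. In all, 4 of 31 members (Tpi1, Eno1, Pkm and Pfkp) were below all 11 others and 1 (Vegfa) above, while 16.6% and 15.8% of all genes tested were, so the share of members was not above the background. Among pathway genes Hif1a was at 53.4, 75.1 and 89.9 CPM against 163.1 to 209.7 CPM, and Fam162a, a hypoxia target, at 170.6, 158.1 and 191.3 CPM against 78.0 to 121.2 CPM. Hif1a was thus lowest in 3 tumors whose Vegfa was highest. Without these tumors, r was 0.57 for Slc2a1 with Pgk1, 0.48 for Tpi1 with Gpi1 and 0.97 for Gapdh with Pgk1 (0.50 with them), the mean r over pairs of members was 0.53, and the glycolysis and hypoxia means correlated at 0.88 over 13 tumors.

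**Figure D5:**
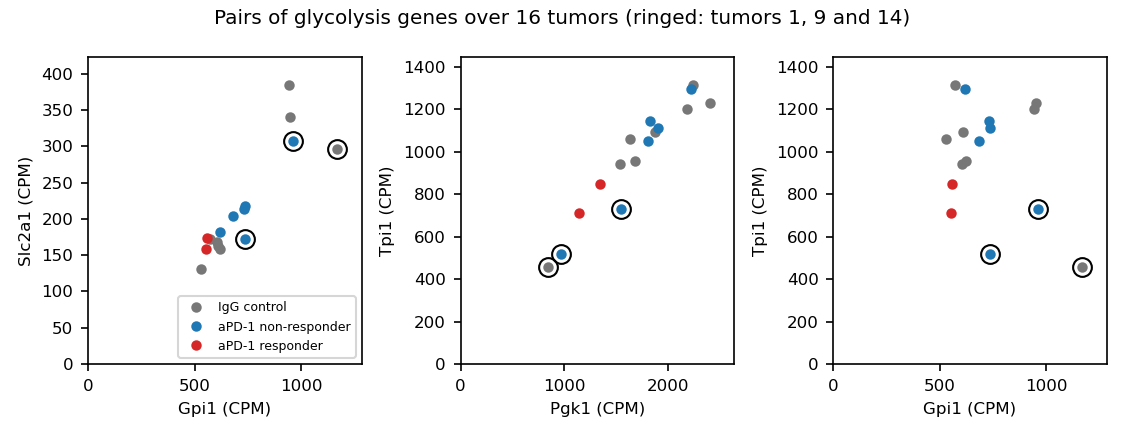
CPM of Slc2a1 against Gpi1, Tpi1 against Pgk1, and Tpi1 against Gpi1 in the 16 tumors, coloured by group, with tumors 1, 9 and 14 ringed. The first 2 pairs lie along a line (r = 0.91 and 0.96). In the last pair the ringed tumors combine Gpi1 of 737.5 to 1167 CPM with low Tpi1 (456.5 to 731.5 CPM). Gpi1 was at 527.9 to 949.2 CPM in the other 11 IgG control and non-responder tumors, so the Gpi1 ranges overlap.

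Outside all lists, the genes most like the mean z score of the 12 hypoxia targets over 16 tumors were Hbegf (r = 0.91), Ier3 (0.91), Kctd11 (0.90), Fosl2 (0.89) and Fstl3 (0.88). Hbegf encodes a growth factor of the EGF family, Ier3 an immediate early response protein and Fosl2 a subunit of the AP-1 transcription factor. Those most like the 15 glycolysis genes were Ptges (prostaglandin E synthase, 0.91), Layn (0.89), Fstl3 (0.88), Tbx20 (0.88) and Lonrf1 (0.88). Fstl3, a secreted binding protein of activins, was in both sets, at 15.8 to 36.3 CPM.

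Some members have near copies elsewhere in the genome, among which reads can be divided. Transcripts of other genes that matched at 95% identity over at least 200 bases were found for 12 members. Gapdh had 124 such genes, whose summed counts were 1.38% to 2.61% of the counts of Gapdh and copies together in any tumor. For Pgk1 this share was at most 1.85%, for Eno1 at most 0.807%, for Pgam1 at most 4.92% and for Pkm at most 10.8% (on the entry Gm49759 above all). The values of these members carry that uncertainty, which is smaller than the differences of Gapdh between groups.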

How the data were processed

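Bulk RNA-seq was measured in 16 MC38 tumors. The authors aligned reads to GRCm38 with STAR 2.6 and deposited expected counts per gene from RSEM 1.3.0 on Ensembl annotation; 7.84% of the deposited expected counts were not whole and all were rounded here. The 92 entries that name no gene (at most 185 counts in a tumor) were left out. Total counts were 26603477 to 39948874 per tumor. Genes were filtered with filterByExpr, scaled by TMM and fitted in 1 model over the 3 groups with edgeR 4.0.16 (quasi-likelihood, robust; R 4.3.3), and p-values were adjusted by Benjamini-Hochberg over 18251 genes, with a threshold of 0.05. CPM values use TMM-scaled totals, and log2 CPM a prior count of 2. The steps were tested on simulated data. Alternatives were DESeq2 1.42.0, other filters, scalings and prior counts, fits of the groups compared alone, and each tumor left out. Members, gene lists and markers were chosen with earlier results of these data known. The text names all members, the pathway genes with the smallest p-values (up to 6 per comparison), the main HIF genes, and others as examples chosen after their values were seen. Promoter windows are from RefSeq (GRCm38.p6). p-values measure the spread between tumors, each from another mouse.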

Additional observations from a re-analysis of the deposited data

Results flagged for a closer look

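In 62 groups of values tested for a single tumor far from the others (Dixon's criterion, which chance meets in about 5% of groups), 7 were found, and in each the tumor was the lowest of its group. In IgG control tumor 1, Tpi1 was at 456 CPM (others 943 to 1315), Pgk1 at 842 CPM (1543 to 2405), Eno1 at 1287 CPM (2359 to 3223), Pkm at 1872 CPM (2759 to 3809) and Ldha at 771 CPM (1287 to 1902). Tumor 1 was the lowest of the 8 controls in 12 members and in 36.2% of all genes tested. It was the highest in 4 members and in 32.6% of all genes tested. Tpi1, Pgk1, Eno1, Pkm and Ldha correlated with each other at r = 0.93 to 0.99 over all tumors. Their flags are thus not separate events. The count of 7 therefore cannot be weighed against the 5% rate as if the groups were independent. In non-responder tumor 9, Ldha was at 922 CPM (1388 to 1741) and Egln3 at 47.6 CPM (68.3 to 78.7). Both tumors are among the 3 with a mitochondrial mRNA share above 5%, and the part of that share in these values was not tested.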

How the results depend on the processing

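Against non-responders, the number of members that passed was 2, and it was 5 with those groups fitted alone, 10 without tumors 1, 9 and 14 (chosen after seeing the data), 1 with a log2 fold change above 1 required, and 0 to 5 with each tumor left out in turn (0 without responder 15, 5 without IgG control tumor 1). Against IgG controls it was 2, and it was 6 with DESeq2, 14 without tumors 1, 9 and 14, 5 with the ribosomal RNA entry removed before scaling (also chosen after seeing the data), 1 with the fold required, and 1 to 10 with each tumor left out. For all aPD-1 tumors it was 0, and 1 with groups weighted equally; with each tumor left out it stayed 0. Pathway genes that passed numbered 1 (without responder 15) to 18 (without IgG control tumor 1) against non-responders and 4 to 20 (the same tumors) against IgG controls, and 27 against IgG controls without tumors 1, 9 and 14. For all aPD-1 tumors they numbered 1 with DESeq2 and 7 with equal weights. The share of all genes tested that passed moved with these settings too. Without tumors 1, 9 and 14, 17.8% were higher and 14.7% lower than in non-responders, and 22.0% and 19.6% relative to IgG controls. Without IgG control tumor 1, the shares were 16.7% and 11.2%, and 19.1% and 12.3%. The median log2 fold change of the members, with each tumor left out, ranged from -0.48 to -0.34 against non-responders, -0.50 to -0.28 for responders against IgG controls, -0.05 to 0.06 for non-responders against IgG controls and -0.14 to -0.01 for all aPD-1 tumors. Single tumors left out moved the correlation of the glycolysis and hypoxia means between 0.689 and 0.820. Hk1 changed sign against non-responders (0.015 under a stricter filter, -0.11 to 0.078 with each tumor left out), and Car9 against IgG controls (-0.45 to 0.052). The cause was not tested. No paired analysis was made, since each tumor came from another mouse and the labels give no pairing.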
